A study of Mus musculus with 9 samples.

Results

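Recombinant WNT5A, a purified secreted protein, was added to mouse cells kept in high oxygen, and their RNA was compared with that of cells kept in the same oxygen without it. Their label is pulmonary microvascular endothelial cells, which form the lining of the smallest lung vessels, and they were bought from a supplier. The 3 libraries described (HO-rWNT5A) came from cells in 85% oxygen with 100 ng/ml recombinant WNT5A, and the 3 they were set against (HO) from cells in 85% oxygen alone. They are 6 of the 9 libraries in the series, chosen by their labels. The other 3 (RA) came from cells in 21% oxygen, also without the protein. All 3 groups were cultured for 48 h. The labels name no carrier solution given to the groups without the protein. Whether the 3 libraries of a group stem from separate cultures is not given in the labels, and the p-values cover the spread among these libraries alone, which could be technical. The comparison asks which transcripts added WNT5A alters in cells under hyperoxia, a condition known to injure the small vessels of the lung.

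WNT proteins are lipid-modified secreted ligands that bind Frizzled receptors together with co-receptors. WNT5A is best known for signalling that does not need beta-catenin. It acts through ROR and RYK receptors on the planar cell polarity branch, which reaches JNK kinases and the actin skeleton, and on a branch that releases calcium, and it can restrain the beta-catenin branch. In vessels it has been linked to endothelial growth, migration and junctions.

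Levels are FPKM, the fragments mapped to a transcript divided by its length and by the depth of the library, summed over the transcripts of a gene and brought to a common scale between libraries. A log2 difference is HO-rWNT5A minus HO after adding 1 FPKM to each value, a scale on which the change of low genes is understated. The libraries held roughly 21300000 to 26500000 fragments, a depth estimated from the low values. Of 17 pan-endothelial markers, 12 lay below 1 FPKM in every library. Pecam1 was at most 0.143 FPKM, Cdh5 at most 0.0817 and Vwf at most 0.189, whereas Flt1 (29.1 to 43.3 FPKM) and Emcn (8.49 to 11.6) were present throughout. The smooth muscle gene Acta2 reached 1333 to 1789 FPKM and the keratin gene Krt18 46.6 to 63.6. The defining endothelial markers of the label are therefore largely absent. The summed pan-endothelial and mural marker levels overlapped between the hyperoxic groups, with pan-endothelial sums of 49.96 to 57.01 FPKM in HO and 41.97 to 51.6 in HO-rWNT5A, and pericyte and smooth muscle sums of 2507 to 3415 and 2796 to 3219. The summed level of 5 mesothelial markers did not overlap, with 22.68, 18.96 and 20.77 FPKM in HO and 22.95, 23.24 and 23.13 in HO-rWNT5A, and nearly all of it came from Wt1. Its part in the results was not tested. The pan-endothelial gene Egfl7, chosen after its values were seen, had 0.511 to 1.06 FPKM in HO and 1.07 to 1.35 in HO-rWNT5A. HO replicate 3 stood apart. Small structural RNA made up 20.07% of its FPKM, while the other HO libraries had 27.36% and 26.52% and HO-rWNT5A had 23.45% to 28.07%. Genes varied more among the HO libraries (median SD 0.123, log2 scale) than among those of HO-rWNT5A (0.083).

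Under hyperoxia, added WNT5A was accompanied by small differences in most genes and by a switch in the listed transcripts of Sptan1. Of the 13831 genes whose mean reached 1 FPKM, 1 passed the threshold, a limma p of 0.05 after Benjamini-Hochberg adjustment over all genes (0.00723%). It was an annotation entry of the small nucleolar RNA gene Rnu3b1, and it was lower. No gene was higher past the threshold. At an unadjusted limma p under 0.05 there were 1272 genes (9.2%), of which 627 (4.53%) were higher and 645 (4.66%) lower. Across other fits this count ran from 728 of 13826 without HO-rWNT5A replicate 2 to 2688 of 13807 without HO replicate 3. It was 752 of 13831 with equal FPKM totals and 920 of 13754 with the 2 compared groups alone. In 867 genes (6.27%) every HO-rWNT5A library lay above every HO library, and in 926 (6.7%) below. Leaving out a library can only keep or raise such counts, and without HO replicate 3 they were 2337 (16.9%) and 2512 (18.2%). The median difference was 0.00, and 81 genes differed by at least 1.5-fold in either direction. The median standard error of 0.0887 gave 95% intervals that stayed within 1.5-fold for 13036 genes (94.3%) and within 1.25-fold for 8681 (62.8%). These folds and those below are folds of FPKM + 1. A lower level in bulk RNA can mean less RNA per cell or fewer cells that make it, and these cannot be told apart.

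**Figure D1:**
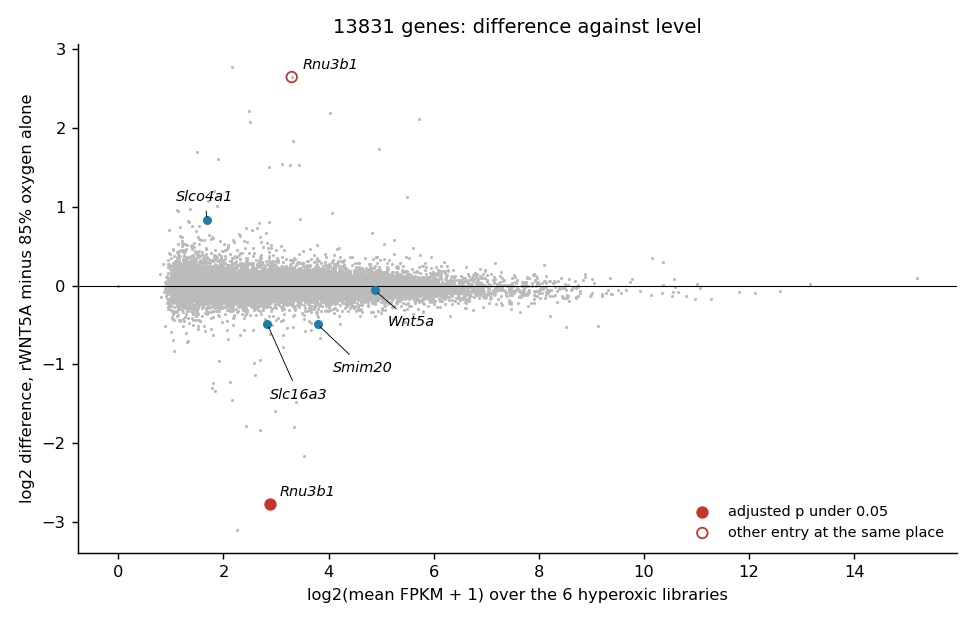
Log2 difference (HO-rWNT5A minus HO) against log2(mean FPKM + 1) over the 6 hyperoxic libraries, 1 point per gene, 13831 genes. Most points lie near 0. The filled red point is the Rnu3b1 entry that passed the threshold at -2.78, and the open red circle is the other Rnu3b1 entry at 2.65.

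Of 26158 transcripts tested one by one, 3 passed the limma threshold (0.0115%), and 1773 (6.78%) had an unadjusted p under 0.05. Sptan1 gave 2 of them. It encodes non-erythroid alpha spectrin, a long rod protein of the skeleton under the plasma membrane, and lies on chromosome 2 of GRCm38/mm10 on the plus strand. Sptan1-205 (chr2:29965560-30031448) had 0.0679, 0.0603 and 0.0800 FPKM in HO and 9.61, 21.4 and 19.0 in HO-rWNT5A, a log2 difference of 3.97 ± 0.25 (SE, limma adjusted p = 0.00298). Sptan1-208 (chr2:29978380-30031184) was listed at 0 in HO and at 22.6, 48.6 and 20.4 FPKM in HO-rWNT5A, a difference of 4.87 ± 0.28 that depends on the pseudocount (limma adjusted p = 0.00298). The 3 room-air libraries had 0.0586, 0.0996 and 0.105 FPKM of Sptan1-205 and were listed at 0 for Sptan1-208. The transcripts were thus at or near 0 in all 6 libraries without the protein and present in all 3 with it. They reached the filter, a mean of 1 FPKM, through the HO-rWNT5A libraries alone. The fit pools the spread of these libraries with that of the 6 at or near 0, so its standard errors understate the spread within HO-rWNT5A. Alternative fits of the same libraries pool the spread in the same way and are no independent support. Both transcripts passed the threshold in 21 of 22 such fits, those without any single library among them. They fell short in the fit without HO replicates 2 and 3 together, where HO is 1 library whose spread is taken from the other groups (limma adjusted p = 0.0605 and 0.0517). The third transcript, Rnu3b1-201, passed in 10 of the 22 (limma adjusted p up to 0.214).

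Of the 6 long coding transcripts of Sptan1, which have 55 to 57 exons, Sptan1-205 and Sptan1-208 alone contain a 63-base exon. It is exon 51 of Sptan1-205, at chr2:30028644-30028706, and keeps the reading frame. Its sequence in GENCODE M21 is shown in capitals with 20 bases of the neighbouring exons in lower case, above the junction that the other 4 transcripts have in its place.
with the exon: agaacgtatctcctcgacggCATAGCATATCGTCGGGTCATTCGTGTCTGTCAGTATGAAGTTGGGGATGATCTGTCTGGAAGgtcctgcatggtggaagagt
without the exon: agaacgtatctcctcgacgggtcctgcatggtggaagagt

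The transcripts with this exon made up 30.2%, 66.5% and 38.9% of the FPKM of the 6 transcripts in HO-rWNT5A, against 0.0712%, 0.0595% and 0.0894% in HO and 0.0611%, 0.104% and 0.107% in RA. The mean was 45.2% ± 18.9 with WNT5A and 0.0734% ± 0.0151 without it under hyperoxia (SD, n = 3), with groups that did not overlap (exact permutation test, two-sided p = 0.1, the smallest that 3 against 3 libraries allow). The exon was picked because the called transcripts alone hold it. This separation was thus fixed in advance and is no further support. HO-rWNT5A replicate 2 had the highest share. A 15-base exon at chr2:30014158-30014172 is held by 4 of the 6 transcripts, Sptan1-205 and Sptan1-208 among them. It made up 75.2% ± 7.63 in HO and 92.6% ± 1.12 in HO-rWNT5A (SD, n = 3, exact permutation p = 0.1). This share counts those called transcripts and is no separate result. Room air had 81.9%, 91.4% and 85.0%, a mean of 86.1%, and only RA replicate 2 reached the lowest HO-rWNT5A value, 91.4%. A 60-base exon at chr2:30001100-30001159 overlapped between the groups, with 57.6% ± 13.4 and 65.2% ± 10.5 (exact permutation p = 0.5).

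The other long transcripts, chosen after their values were seen, lay the other way without passing. Sptan1-201 had 11.5, 13.5 and 7.71 FPKM in HO and 3.68, 3.81 and 4.66 in HO-rWNT5A, and Sptan1-202 had 9.42, 20.3 and 9.28 and then 3.94, 2.89 and 4.03 (limma adjusted p = 0.507 and 0.608). Neither transcript overlapped between the groups. Sptan1-203 and Sptan1-204 had means of 41.5 and 29.8 FPKM in HO and 34.1 and 15.5 in HO-rWNT5A (limma adjusted p = 0.864 and 0.722). The gene's sum over its 16 transcripts was 123.4, 119.9 and 122.9 FPKM in HO and 133.1, 136.0 and 132.9 in HO-rWNT5A, a difference of 0.13 (limma adjusted p = 0.5). StringTie, which the labels name, shares fragments of common bases among the transcripts of a gene, so these values are estimates of transcript use and no counts of reads across the junctions.

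**Figure D2:**
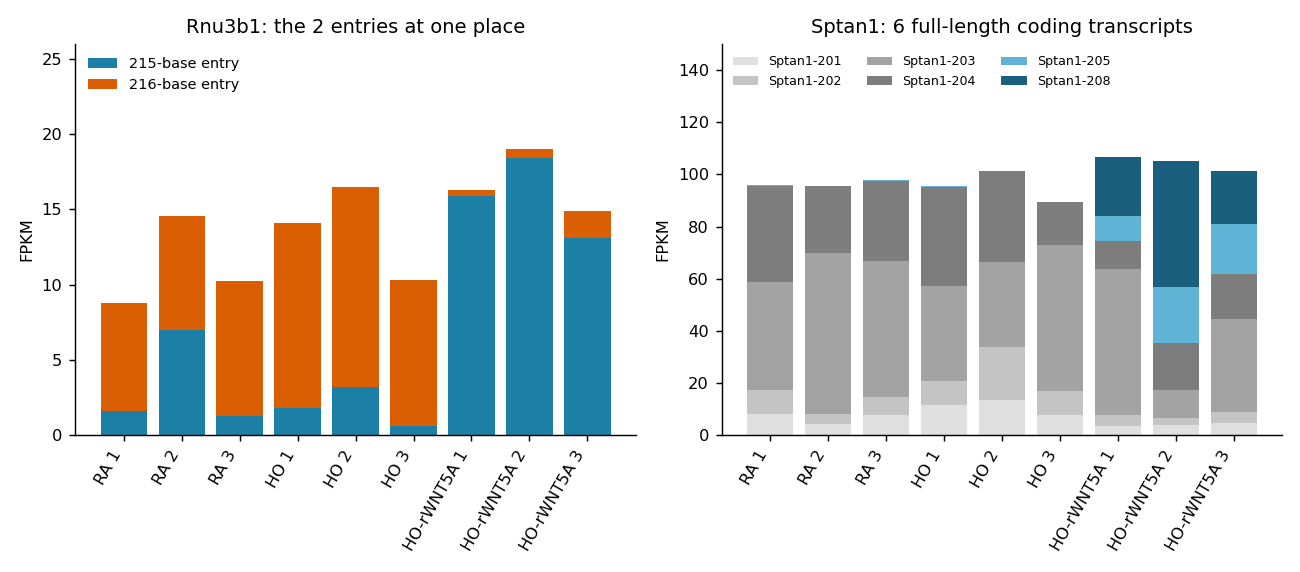
FPKM in each of the 9 libraries, stacked by annotation entry of Rnu3b1 (left) and by the 6 long coding transcripts of Sptan1 (right). The 216-base Rnu3b1 entry takes most of the bar in the 6 libraries without WNT5A and the 215-base entry in the 3 with it. Sptan1-205 and Sptan1-208 (blue) appear in the 3 HO-rWNT5A bars.

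Transcripts that appear or vanish between groups were also counted over the whole table of 143043. There were 6 (0.00419%) listed at 0 in all HO libraries and at 1 FPKM or more in every HO-rWNT5A library, and 1 (0.000699%) with the reverse pattern. The same count between the other pairs of groups gave 3, 4, 3 and 8. Besides Sptan1-208, the 6 were Chtf8-201, Tmem59-202, Tor1aip1-210, Acad10-202 and Ddx39-206, chosen after their values were seen. Chtf8-201, of a gene for a replication factor subunit, was listed at 0 in HO and had 8.76, 19.5 and 11.4 FPKM in HO-rWNT5A. It was also listed at 0 in 2 of 3 RA libraries, with 3.94 FPKM in RA replicate 2, and the Chtf8 gene entry it belongs to (ENSMUSG00000046691.14) had 35.2, 36.8 and 22.2 FPKM in HO and 31.3, 33.5 and 34.5 in HO-rWNT5A. The reverse case was ENSMUST00000238957, an identifier not found in GENCODE M21, with 7.306, 7.325 and 8.165 FPKM in HO and 0 in HO-rWNT5A. It was also listed at 0 in RA replicate 1, while the other RA libraries had 8.896 and 8.747 FPKM. Appearing and vanishing transcripts thus numbered 6 and 1 with WNT5A under hyperoxia, against 3 to 8 in the other pairs of groups.

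Rnu3b1 to Rnu3b4 are copies of the gene for U3, a small nucleolar RNA needed to process the precursor of ribosomal RNA. Each copy has 2 entries in GENCODE M21 that start at the same base and differ in their end, of 215 and 216 bases. All 8 entries are identical over the first 215 bases. The longer Rnu3b1 entry (ENSMUSG00000098943.1, chr11:87443237-87443452, plus strand) is shown because it is the gene that passed the threshold, with the base that the shorter entry (ENSMUSG00000105025.1) lacks in capitals.
Rnu3b1: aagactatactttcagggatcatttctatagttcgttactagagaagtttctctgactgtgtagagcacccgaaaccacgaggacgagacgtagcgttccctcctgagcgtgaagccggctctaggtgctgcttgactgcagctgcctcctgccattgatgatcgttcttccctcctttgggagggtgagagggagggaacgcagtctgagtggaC

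The longer Rnu3b1 entry had 12.3, 13.3 and 9.70 FPKM in HO and 0.394, 0.619 and 1.79 in HO-rWNT5A, a log2 difference of -2.78 ± 0.219 (SE, limma adjusted p = 0.00187). The shorter entry had 1.79, 3.20 and 0.601 FPKM in HO and 15.9, 18.4 and 13.1 in HO-rWNT5A, a difference of 2.65 ± 0.448 (limma adjusted p = 0.286). Neither entry overlapped between the groups. The remaining copies followed Rnu3b1 in HO-rWNT5A replicates 1 and 2 and not in replicate 3. The longer Rnu3b3 entry, an example chosen after its values were seen, had 15.4, 17.2 and 12.7 FPKM in HO and 0.469, 0.771 and 16.5 in HO-rWNT5A. Summed over the 2 entries, Rnu3b1 had 14.1, 16.5 and 10.3 FPKM in HO and 16.3, 19.1 and 14.9 in HO-rWNT5A, and its difference was then 0.30 (limma adjusted p = 0.649). The sum over all 8 entries was 58.2 ± 11.3 FPKM in HO and 73.1 ± 10.7 in HO-rWNT5A (SD, n = 3; exact permutation test, two-sided p = 0.2). Fragments of these copies can be assigned to either entry, so the single call is a difference between entries and is uncertain as a difference in U3 RNA.

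The cells' own Wnt5a transcript, encoding the ligand that was added, showed no difference past the threshold. Room air gave 27.1, 25.8 and 24.9 FPKM, hyperoxia alone 26.8, 29.9 and 30.5, and hyperoxia with the protein 29.1, 28.1 and 26.2. The hyperoxic groups overlapped, and the difference was -0.06 (95% interval -0.21 to 0.08, limma adjusted p = 0.807). Of 19 WNT ligand genes 7 could be tested, with a median of -0.01. None had groups that did not overlap, against 6.27% of all genes higher and 6.7% lower. Wnt7b followed Wnt5a in level, with 9.66, 13.1 and 10.8 FPKM in HO and 11.1, 11.6 and 10.5 in HO-rWNT5A. Wnt9a had 6.58, 8.72 and 7.75 and then 5.80, 6.57 and 7.72. The other ligands stayed below 4 FPKM in all 9 libraries.

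Of 17 WNT receptors and co-receptors 14 could be tested, and none passed. All 14 intervals lay within 1.25-fold of no difference in FPKM + 1, a scale that understates changes of low genes such as Ror1. Of the differences 11 were negative, and the median was -0.05. The most abundant were Mcam, a cell adhesion molecule reported to bind WNT5A, Ptk7, a pseudokinase of planar polarity, and Ryk, a WNT receptor with an inactive kinase. Mcam had 103, 90.4 and 84.8 FPKM in HO and 101.0, 89.9 and 84.2 in HO-rWNT5A, Ptk7 had 78.8, 80.6 and 70.8 and then 78.7, 74.3 and 69.1, and Ryk had 37.0, 40.4 and 35.6 and then 37.0, 35.5 and 37.1. The groups overlapped in all 3 genes. The receptors that carry WNT5A signals through a ROR kinase were much lower. Ror1 had 1.24, 1.41 and 1.27 FPKM in HO and 1.10, 1.35 and 1.32 in HO-rWNT5A. Ror2 lay below the filter, with 0.98, 0.831 and 0.826 FPKM in HO and 0.528, 0.672 and 0.669 in HO-rWNT5A, groups that did not overlap at a level too low to test.

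Among the tested receptors 3 of 14 had lower HO-rWNT5A groups without overlap, against 6.7% of all genes, and 0 had higher ones, against 6.27%. The Frizzled gene Fzd7 had 11.6, 11.4 and 11.3 FPKM in HO and 10.8, 9.69 and 10.5 in HO-rWNT5A (difference -0.14, limma adjusted p = 0.541). Fzd8 had 3.76, 4.39 and 3.99 and then 3.74, 3.72 and 3.62 (-0.10, limma adjusted p = 0.689). Lrp5, a co-receptor of the beta-catenin branch, had 14.9, 15.9 and 14.4 and then 13.8, 13.7 and 13.9 (-0.11, limma adjusted p = 0.551). Its relative Lrp6 overlapped, with 13.5, 14.9 and 14.8 and then 13.1, 13.6 and 14.6. The remaining tested Frizzled genes, Fzd1 to Fzd6, had differences of -0.09 to 0.02 and overlapped. Fzd9 and Fzd10 had means below 1 FPKM over the 9 libraries and were not tested.

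**Figure D3:**
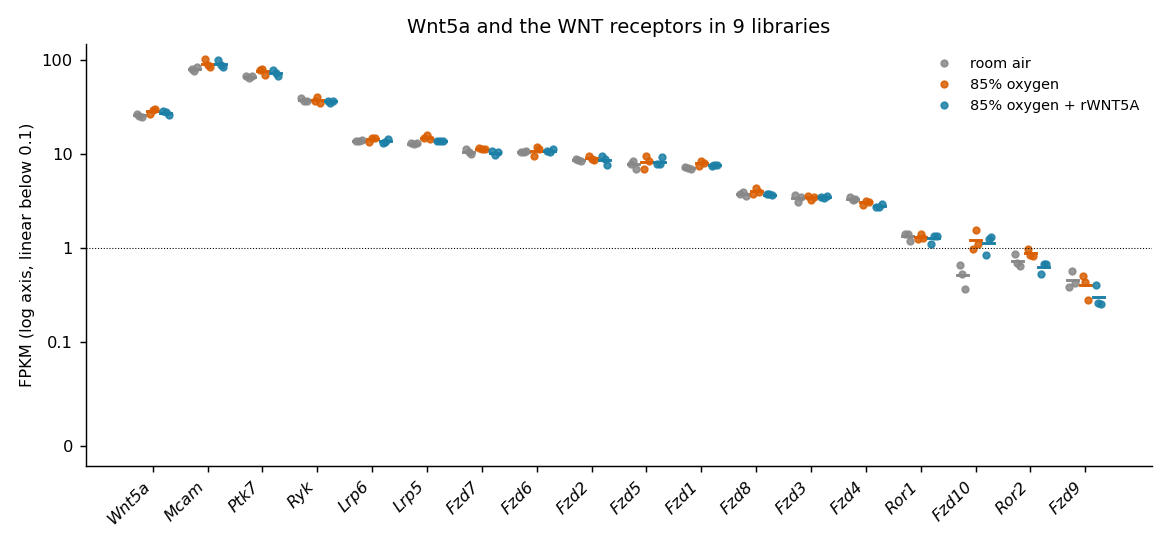
FPKM of Wnt5a and of 17 WNT receptors and co-receptors in each library (points; bars are group means, n = 3), on an axis that is logarithmic above 0.1. The dotted line marks 1 FPKM. Ror2 at the right is the receptor whose hyperoxic groups lie farthest apart, and it was too low to test.

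Genes for WNT secretion and for modulators outside the cell had a median of -0.10 over 10 tested of 24, with 8 negative. Only Lgr6, a receptor for R-spondins, which strengthen WNT signals, had groups that did not overlap, with 11.5, 12.7 and 11.04 FPKM in HO and 10.6, 9.99 and 9.99 in HO-rWNT5A (-0.19, limma adjusted p = 0.5). That is 1 of 10 lower, against 6.7% of all genes, and 4 of 10 without HO replicate 3, against 18.2%. Porcn, which attaches the lipid to WNT proteins, had 3.19, 4.43 and 3.11 and then 3.13, 2.71 and 2.59. Dkk3, a secreted member of the Dickkopf family, had 65.2, 59.4 and 52.2 and then 55.5, 48.8 and 46.1. Wls, which carries WNT proteins to the cell surface, was high and close between groups, with 91.6, 94.6 and 96.8 and then 91.4, 93.5 and 91.6.

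Downstream of the receptors the branches stood near the background. In the planar cell polarity and JNK branch, 3 of 25 tested genes were higher without overlap (12.0%, against 6.27% of all genes) and 2 lower (8.0%, against 6.7%), with a median of 0.02. Dvl2, a cytoplasmic relay shared by all WNT branches, had 11.8, 11.2 and 11.7 FPKM in HO and 14.7, 13.4 and 12.6 in HO-rWNT5A (0.21, limma adjusted p = 0.5). The core polarity genes Vangl1 and Prickle1 lay the other way, Vangl1 with 4.77, 4.85 and 4.68 and then 4.14, 4.07 and 4.27, and Prickle1 with 6.14, 6.22 and 6.15 and then 5.82, 5.42 and 4.76. In the calcium branch 1 of 19 genes was higher without overlap (5.26%, against 6.27% of all genes) and 2 lower (10.5%, against 6.7%). The median was 0.00. Plcb3, a phospholipase that starts calcium release, had 15.5, 14.5 and 15.1 and then 18.4, 18.8 and 16.1. The calcineurin subunit genes Ppp3cb and Ppp3r1 were the lower ones, at -0.14 and -0.16. All these genes had limma adjusted p of 0.5 or more.

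Targets of beta-catenin gave 0 of 10 tested genes without overlap in either direction, against 6.27% of all genes higher and 6.7% lower. Their median was -0.04, with all 10 intervals within 1.5-fold. The cell cycle gene Ccnd1, the most abundant, had 306, 372 and 312 FPKM in HO and 283, 315 and 313 in HO-rWNT5A. Myc had 19.3, 24.6 and 20.4 and then 24.9, 21.6 and 24.2, and the pathway inhibitor Apcdd1 2.98, 2.68 and 2.52 and then 2.52, 2.36 and 1.997. Axin2, a common reporter of this branch chosen after its values were seen, lay below the filter at 0.808 to 1.25 FPKM over the 9 libraries. The beta-catenin machinery had a median of 0.00 and all 20 intervals within 1.25-fold. Without overlap 1 of 20 genes was higher (5.0%) and 1 lower (5.0%), near the 6.27% and 6.7% of all genes.

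YAP and TAZ, co-activators that respond to cell tension and that WNT5A can engage, had 16 of 18 tested genes with a positive difference and a median of 0.06. Of the 18, 4 were higher without overlap (22.2%, against 6.27% of all genes) and 0 lower (against 6.7%). The transcription factor gene Tead3, their DNA-binding partner, had 10.02, 8.73 and 9.16 FPKM in HO and 11.3, 10.7 and 10.8 in HO-rWNT5A (0.22, limma adjusted p = 0.5). Ajuba, a junction protein of this pathway, had 24.4, 26.6 and 24.5 and then 29.8, 27.1 and 30.0 (0.20, limma adjusted p = 0.5). The target Ankrd1 had 62.3, 71.4 and 71.8 and then 72.9, 75.6 and 98.3, with HO-rWNT5A replicate 3 the highest (0.25, limma adjusted p = 0.519). The most abundant member, the matrix-associated target Ccn2, overlapped, with 1427, 1728 and 1501 and then 1467, 1386 and 1536 (-0.08, limma adjusted p = 0.847). The summed level of the 18 genes overlapped too, at 2627 to 2962 FPKM and 2649 to 2877. The median stayed between 0.049 and 0.103 in all 25 alternative settings.

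Actin and contractile genes had 4 of 27 higher without overlap (14.8%, against 6.27% of all genes) and 1 lower (3.7%, against 6.7%). Smtn, for the actin-binding protein smoothelin, had 53.8, 53.7 and 48.1 FPKM in HO and 68.7, 57.7 and 58.3 in HO-rWNT5A (0.24, limma adjusted p = 0.5). Junction genes had 2 of 21 higher (9.52%, against 6.27% of all genes) and 1 lower (4.76%, against 6.7%). Nectin2 had 19.1, 22.0 and 19.9 and then 23.6, 23.8 and 22.5. Genes of angiogenesis had 2 of 25 higher (8.0%, against 6.27%) and 0 lower (against 6.7%). Their members Nrp2, a co-receptor for VEGF, and Vegfa, the growth factor, had differences of 0.16 and -0.01. Matrix genes leaned lower, with 21 of 29 negative and a median of -0.06. Without overlap 4 were lower (13.8%, against 6.7% of all genes) and 1 higher (3.45%, against 6.27%). Col12a1 had 27.5, 26.4 and 25.5 and then 23.6, 23.2 and 22.4 (-0.19, limma adjusted p = 0.5).

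Hypoxia-inducible and glycolytic genes were the lowest of the 26 pathway lists, with 23 of 31 negative and a median of -0.12, against 0.00 over all genes. Of the 31, 10 (32.3%) were lower in HO-rWNT5A without overlap, against 6.7% of all genes, and 1 was higher (3.23%, against 6.27%). None passed the threshold, and the median kept its sign in all 25 alternative settings, between -0.155 and -0.054. Slc16a3, the transporter that exports lactate, had 6.75, 8.20 and 6.95 FPKM in HO and 5.34, 4.11 and 5.36 in HO-rWNT5A (-0.49, limma adjusted p = 0.431). Pfkl, for a phosphofructokinase subunit, had 14.6, 19.3 and 16.4 and then 12.9, 14.0 and 12.5 (-0.32, limma adjusted p = 0.5). Ldha, for the enzyme that turns pyruvate into lactate, had 207, 265 and 199 and then 184, 179 and 166 (-0.33, limma adjusted p = 0.5). The most abundant enzymes of glycolysis in the list overlapped. Gapdh had 457.5, 512.5 and 391.9 and then 426.5, 417.0 and 419.8 (-0.10), Eno1 had 409.0, 515.0 and 398.3 and then 403.3, 388.8 and 399.2 (-0.14), and Pkm had 401.4, 476.4 and 399.7 and then 422.0, 435.7 and 422.7 (0.01).

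Every HO-rWNT5A library of Slc16a3, Pfkl and Ldha also lay below every room-air library. In RA, Slc16a3 had 7.28, 7.33 and 8.74 FPKM, Pfkl 18.4, 17.9 and 16.0, and Ldha 208, 212 and 204. Bnip3, a mitochondrial protein gene induced by low oxygen, had 6.27, 7.06 and 5.79 FPKM in HO and 4.41, 4.97 and 4.85 in HO-rWNT5A (-0.36, limma adjusted p = 0.5). The 1 higher member, Pfkfb4, an enzyme that tunes glycolysis, named after its values were seen, had 2.48, 2.21 and 2.26 and then 3.21, 2.98 and 2.69. HO replicate 2 was the highest HO library for 19 of the 31 genes, against 34.3% of all genes. Without it the list had 10 lower genes without overlap, a count that could not fall, while the share of all genes rose from 6.7% to 10.3%. Without HO replicate 3 it had 16 of 31, against 18.2% of all genes.

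Cholesterol synthesis genes were the highest of the 26 pathway lists, with 22 of 24 positive and a median of 0.09. Of the 24, 4 (16.7%) were higher without overlap, against 6.27% of all genes, and 0 lower (against 6.7%). Insig1, a sterol sensor that restrains the pathway, had 16.8, 17.6 and 14.4 FPKM in HO and 18.8, 19.0 and 17.7 in HO-rWNT5A (0.18, limma adjusted p = 0.529). In RA it was higher again, at 21.7 to 24.6 FPKM, so that the HO-rWNT5A values lay between those of the other groups. Acat2, which joins acetyl groups at the start of the pathway, had 10.3, 8.91 and 8.89 and then 12.2, 11.9 and 10.8 (0.28, limma adjusted p = 0.499). Set against HO replicate 1 alone, without HO replicates 2 and 3, the median of the list was -0.01.

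**Figure D4:**
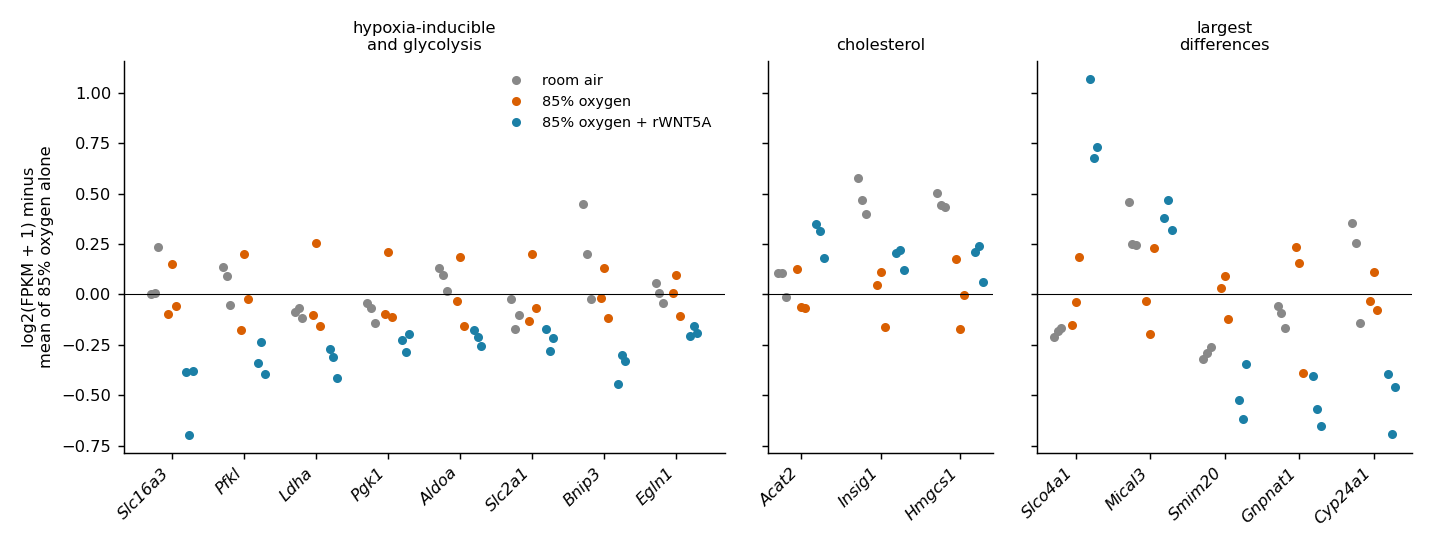
Each library's log2(FPKM + 1) minus the HO mean for 16 genes, 1 point per library, grey for room air, orange for 85% oxygen and blue for 85% oxygen with WNT5A. The 8 hypoxia-inducible and glycolysis genes shown are among the 10 of 31 tested that have all 3 blue points below the orange ones. They were picked with their values known, so their separation is no further support. Gapdh, Eno1 and Pkm, which overlapped, are not shown. Insig1 has the blue points between the orange and the grey.

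In stress and damage programs no gene passed the threshold. Cdkn1a, the p53 target that stops the cell cycle, had 286, 323 and 259 FPKM in HO and 282, 269 and 267 in HO-rWNT5A. The 28 tested p53 targets had a median of 0.00. Without overlap 2 were higher (7.14%, against 6.27% of all genes) and 0 lower (against 6.7%). Among genes of the integrated stress response, 2 of 23 were lower without overlap (8.7%, against 6.7% of all genes). Slc7a5, an amino acid transporter of this list, had 32.7, 35.8 and 31.2 and then 28.9, 24.4 and 25.8 (-0.32, limma adjusted p = 0.456). Herpud1, of protein quality control in the endoplasmic reticulum, had 17.7, 16.5 and 16.4 and then 14.2, 14.7 and 13.7 (-0.23, limma adjusted p = 0.492). Prdx1, a peroxide-removing enzyme, had 171, 173 and 155 and then 138, 143 and 148 (-0.22, limma adjusted p = 0.5), the only NRF2 target of 21 tested without overlap (4.76%, against 6.7% of all genes). Without HO replicate 3 the count was 10 of 21, against 18.2% of all genes. Hmox1 had a difference of -0.05. Oxidative phosphorylation genes had 26 of 32 negative and a median of -0.07. Without overlap 2 were lower (6.25%, against 6.7% of all genes) and 1 higher (3.12%, against 6.27%). Without HO replicate 3 the lower ones were 20 of 32, against 18.2% of all genes.

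Of the apoptosis genes 4 of 19 were lower without overlap (21.1%, against 6.7% of all genes) and 0 higher (against 6.27%). Casp9, an initiator caspase gene, had 6.13, 6.77 and 6.31 FPKM in HO and 5.88, 5.04 and 5.23 in HO-rWNT5A (-0.22, limma adjusted p = 0.5). In the DNA replication list 4 of 27 were lower (14.8%, against 6.7% of all genes) and 2 higher (7.41%, against 6.27%). Pcna, the sliding clamp of DNA polymerase, had 25.1, 22.7 and 20.1 and then 19.5, 17.4 and 19.2 (-0.26, limma adjusted p = 0.5). Mki67, a mark of cycling cells, had 1.68, 2.05 and 1.84 and then 2.27, 1.91 and 2.04. Of 14 tested inflammation genes 2 were higher (14.3%, against 6.27% of all genes) and 1 lower (7.14%, against 6.7%). Ptgs2, the inducible prostaglandin synthase, had 23.0, 31.9 and 29.9 and then 33.1, 32.3 and 42.9, with HO-rWNT5A replicate 3 the highest (0.34, limma adjusted p = 0.5). TGF-beta and BMP genes had 2 of 24 lower (8.33%, against 6.7% of all genes) and 0 higher (against 6.27%). The lower ones were Tgfbr2 and Id1, at -0.22 and -0.26.

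**Figure D5:**
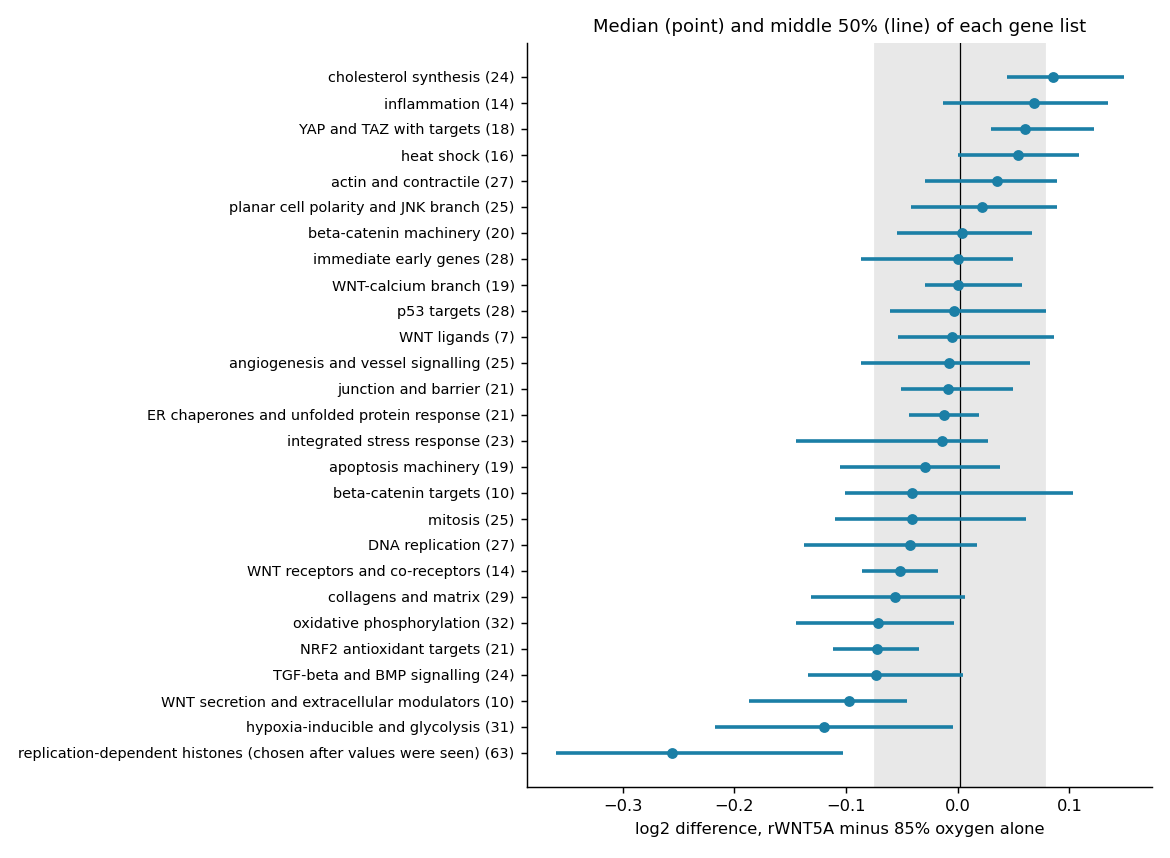
Median log2 difference (point) and middle 50% (line) of the tested genes of each pathway list and of the histone genes, with cell type markers left out and the number tested in brackets. The grey band and black line are the middle 50% and median of all 13831 genes. The medians shown run from -0.26 for the histone genes to 0.09 for cholesterol synthesis.

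Named by their size, the largest single-gene differences came from 188 candidates. These were protein-coding genes at an unadjusted p under 0.01, which 1.93% of all genes reached, with groups that did not overlap, of which 77 were higher and 111 lower. Slco4a1, a transporter of thyroid hormone and other organic anions, had the largest positive difference, with 1.08, 1.26 and 1.63 FPKM in HO and 3.86, 2.69 and 2.85 in HO-rWNT5A (0.83, 95% interval 0.55 to 1.10, limma adjusted p = 0.286). Mical3, an enzyme that acts on actin, had 13.6, 12.0 and 16.4 and then 18.4, 19.6 and 17.6 (0.39, limma adjusted p = 0.498). Setd4, Pbx4, Filip1l, Serp2, Cfp, Pcyt2 and Lmtk3 had positive differences of 0.38 to 0.46.

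On the lower side, Smim20, which takes part in assembling cytochrome c oxidase, had 15.5, 16.2 and 13.8 FPKM in HO and 10.2, 9.53 and 11.7 in HO-rWNT5A (-0.49, limma adjusted p = 0.286). Gnpnat1, an enzyme that makes the sugar nucleotide for glycosylation, had 11.8, 11.1 and 7.26 and then 7.17, 6.31 and 5.89 (-0.54, limma adjusted p = 0.492). Cyp24a1, which inactivates vitamin D, had 2.30, 2.64 and 2.20 and then 1.57, 1.09 and 1.45 (-0.52, limma adjusted p = 0.492). Kcnma1, a calcium-activated potassium channel, had 2.12, 2.17 and 2.93 and then 1.31, 1.74 and 1.38 (-0.46, limma adjusted p = 0.471). Without HO replicate 3, 27 genes passed the threshold, 5 higher and 22 lower. Slco4a1, Smim20 and Gnpnat1 were then among them, with limma adjusted p of 0.0367, 0.0431 and 0.0296, as were Pnpla6, Camk2n1, Gng10, Pax2, Hist1h3i and Sdhc. Against HO replicate 1 alone, with the spread taken from the other groups, none passed in limma and 1887 genes had an unadjusted p under 0.05, a fit that says nothing of stability.

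The replication-dependent histone genes supplied 5 of the 10 genes with the largest negative differences, and their list was therefore drawn up after these values were seen. Their messages end in a stem-loop without a poly(A) tail and are made mainly in S phase. Of 63 tested, 56 were negative, the median was -0.26, and 12 (19.0%) were lower without overlap, against 6.7% of all genes. Hist1h3a had 4.67, 6.33 and 4.73 FPKM in HO and 3.17, 3.59 and 2.88 in HO-rWNT5A (-0.56, limma adjusted p = 0.492). Their summed level was 1541, 1470 and 1049 FPKM in HO, 1207, 1093 and 1132 in HO-rWNT5A, and 1412, 1472 and 1664 in RA. HO replicate 3, the library with the lowest share of small structural RNA, was thus the lowest of all 9. In replicate order that share was 27.36%, 26.52% and 20.07% in HO, 28.07%, 26.07% and 23.45% in HO-rWNT5A, and 21.39%, 24.98% and 24.23% in RA. Its part in the result was not tested. The count of lower genes without overlap was 49 of 63 without HO replicate 3, against 18.2% of all genes. It was 13 of 63 without HO replicate 2, against 10.3%. These genes are near-identical copies whose fragments can be split between them, so single members are uncertain.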

How the data were processed

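RNA of 9 libraries from mouse cells was sequenced as paired 150-base reads from total RNA, per the labels' protocols. The deposited values are FPKM per transcript, made by the authors. Per the labels' protocols, reads were trimmed with Skewer 0.2.2, aligned with STAR 2.5.3a, assembled and merged with StringTie 1.3.1 and compared with Ensembl by gffcompare 0.9.9c. The submitters' processing notes list the builds hg38 and mm10 with no role. Of 142351 Ensembl transcripts, 141441 (99.36%) were found in GENCODE M21 (GRCm38/mm10), which gave names, places and sequences; 692 assembled transcripts had no such identifier. FPKM were summed per gene identifier and scaled by the median ratio of genes seen in every library. The 13831 genes and 26158 transcripts with a mean of at least 1 FPKM were tested on log2(FPKM + 1) with limma 3.58.1 in R 4.3.3, in 1 fit over all 9 libraries with a variance trend and Benjamini-Hochberg adjustment. The test was tried on simulated independent genes, each with 1 spread shared by all groups. It recovered 70 of 100 changes of 1.5-fold and 91 of 100 of 2-fold, and called 3 unchanged genes. The real groups differ in spread, so these shares need not hold for the data. FPKM carry no counts. Depth was estimated from the commonest lowest value of single-transcript genes, and the number of libraries limits the precision. Groups came from the sample titles.

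The comparison, the gene lists and the members were chosen with earlier results of these data known, so the low hypoxia-inducible and high cholesterol lists are no independent support. Named by rule were Wnt5a and all WNT receptors, up to 4 members of each other list with the smallest p and up to 3 with the highest mean, the 10 genes with the largest differences in each direction, all features past the threshold, up to 10 genes that passed in most alternatives, and a few genes whatever their values. The text marks each other gene as picked once its value was known. A few genes that the rule names are not reported here. Alternatives were other pseudocounts (0.1 and 5), filters (none, or 5 FPKM), scalings and variance models, fits that held only HO and HO-rWNT5A, or had a replicate block, or left out 1 library at a time, sums per symbol, protein-coding genes alone and reference transcripts alone. Leaving out HO replicates 2 and 3 together was added after the data were seen.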

Additional observations from a re-analysis of the deposited data

How the results depend on the processing

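The count of 1 gene past the limma threshold became 0 with no filter (2433 genes at an unadjusted p under 0.05), 0 when entries were summed per symbol (1273), 0 with protein-coding genes alone (1139) and 0 without HO replicates 2 and 3 together (1887; 1 HO library is left, assumed to vary like the other groups), and 3 with the 2 compared groups alone. Leaving out each library in turn gave 1 to 27 genes. The count was 3, 2, 3, 27, 2, 5 and 5 without RA replicate 1, RA replicate 2, HO replicate 2, HO replicate 3, and HO-rWNT5A replicates 1, 2 and 3. Of the 3 transcripts, the count became 6 with no filter, 7 with the 2 compared groups alone and 18 without HO replicates 2 and 3 together. It ranged from 3 to 13 with each library left out, with 7, 13, 6 and 8 without HO replicate 2, HO replicate 3, and HO-rWNT5A replicates 2 and 3. With the replicate number as a block the counts were 2 genes and 3 transcripts. Libraries of the same number in HO and HO-rWNT5A had deviations correlated across genes at 0.28, -0.118 and 0.13. Those of unlike number were correlated at -0.252 to 0.12, and not every library correlated best with its own number. These values do not settle whether the numbers pair the samples. The Rnu3b1 difference of -2.78 turned to 0.30 when the 2 entries were summed. For Rnu3b1 that sum showed that the difference lies between the entries. Its cause was not tested, nor was that of the other changes in count. Of 5841 values of 236 named genes, 5741 kept their direction and side of the threshold or moved by no more than the spread between replicates, 82 moved further, 15 came past the threshold and 2 fell short of it. Of 874 list medians, 115 moved by more than that spread.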
